A study of Mus musculus with 26 samples.

Results

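Pancreatic islets from young mice were compared after 2 days of culture at 5.5 mM and at 3 mM glucose, the lowest step of a glucose series. The comparison takes every sample that the labels place in these conditions, 2 arrays at 5.5 mM and 2 at 3 mM, out of 26 arrays in the study. All 4 samples are whole islets of wild-type male C57BL/6J mice aged 5 weeks, which recovered for 1 day in medium with 11 mM glucose and serum before the 2 days at the stated concentration. Total RNA was read on Affymetrix mouse arrays, 1 sample per array, and 12580 genes were tested. The study also cultured young islets at 11 and 16 mM, moved young islets, after a night at 3 mM (time 0), to 11 mM for 1 h and 4 h, cultured islets of mice aged 56 weeks at 3, 5.5 and 11 mM, and used fresh islets of both ages. The replicates are labelled biological, and the labels do not say if a sample pools several mice. A p-value therefore measures only the spread among samples of the study. That spread was estimated from all 26 arrays and not from the 4 compared alone.

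Beta cells take up glucose through a low-affinity transporter and phosphorylate it, so that their metabolism, and with it insulin secretion, follows the concentration outside the cell. In culture, 5.5 mM lies close to the blood glucose of a fasted mouse, while 3 mM is a hypoglycaemic condition under which cultured rodent islets are known to lose beta cell gene expression and to show stress gene expression. One arm of that stress programme is the integrated stress response, in which phosphorylation of a translation initiation factor lowers protein synthesis in general and favours the transcription factor ATF4, which in turn switches on CHOP and other genes. In whole islets, fewer cells of a type and less RNA per cell cannot be told apart.

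Signals are the deposited MAS5 intensities, and a change is the difference between group means of log2(intensity + 16), where 16 is an offset that damps noise and understates changes of dim genes. By the Gapdh control probe sets, whose 5' signal was set over their 3' signal, the 26 arrays separate into 2 sets unnamed in the labels. The 4 arrays compared all lay in the set with the low ratio, at 0.1585 and 0.1397 for 3 mM and 0.1693 and 0.1677 for 5.5 mM. The signal of the cre-3 spike-in control was 5020 and 5841 at 3 mM and 4918 and 5693 at 5.5 mM, so it was higher on replicate 2 in both groups and close between the groups. Replicates correlated across probe sets at 0.989 at 3 mM and 0.984 at 5.5 mM (probe sets are not independent replicates). The islet hormone genes marked the tissue on every array. Gcg, which encodes glucagon, gave signals of 6694 and 8595 at 3 mM and 6988 and 7708 at 5.5 mM, and Sst, which encodes somatostatin, gave 5066 and 5985 against 4837 and 5769. The values of both concentrations overlapped for each of these genes.

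Between 5.5 and 3 mM, 149 genes, or 1.18% of the genes tested, passed the threshold of 0.05 on the Benjamini-Hochberg adjusted p from limma, and 67 of them rose (0.533%) and 82 fell (0.652%). The rises had a median of 0.95 on the log2 scale (range 0.48 to 2.0), and 28 of them were at least 2-fold. The falls had a median of -0.99 (range -2.73 to -0.59), and 37 were at least 2-fold. All 149 had arrays that did not overlap between the concentrations, as did 48.6% of all genes tested. Lack of overlap, where given below for single genes, is therefore a description and adds nothing to a call. The number of calls followed the estimate of spread. With the array set as a factor, which leaves each change as it is and removes the difference between the sets from the spread, 762 genes passed (6.06%), 374 higher (2.97%) and 388 lower (3.08%). The labels do not say that a replicate number marks paired samples. Pairing was assumed because deviations of arrays with the same number correlated at 0.33 between 3 and 5.5 mM. Replicate 2 also had the higher array median in both groups (32 over 28 at 3 mM and 34 over 30 at 5.5 mM). Whether the correlation comes from paired samples or from such differences between arrays was not tested. Under the assumption of pairing, a fit with a replicate block and the array set gave 1466 genes (11.7%), 755 higher (6.0%) and 711 lower (5.65%). All 149 genes were also called in both of those fits, which leave their changes, and so their direction, the same. Leaving out 1 array at a time lowered the count, and of the 149 genes 15 passed without 3 mM replicate 1, 2 without 3 mM replicate 2, 75 without 5.5 mM replicate 1 and 0 without 5.5 mM replicate 2. All 149 kept their direction in each of those fits, which could not change it since their arrays did not overlap.

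**Figure D1:**
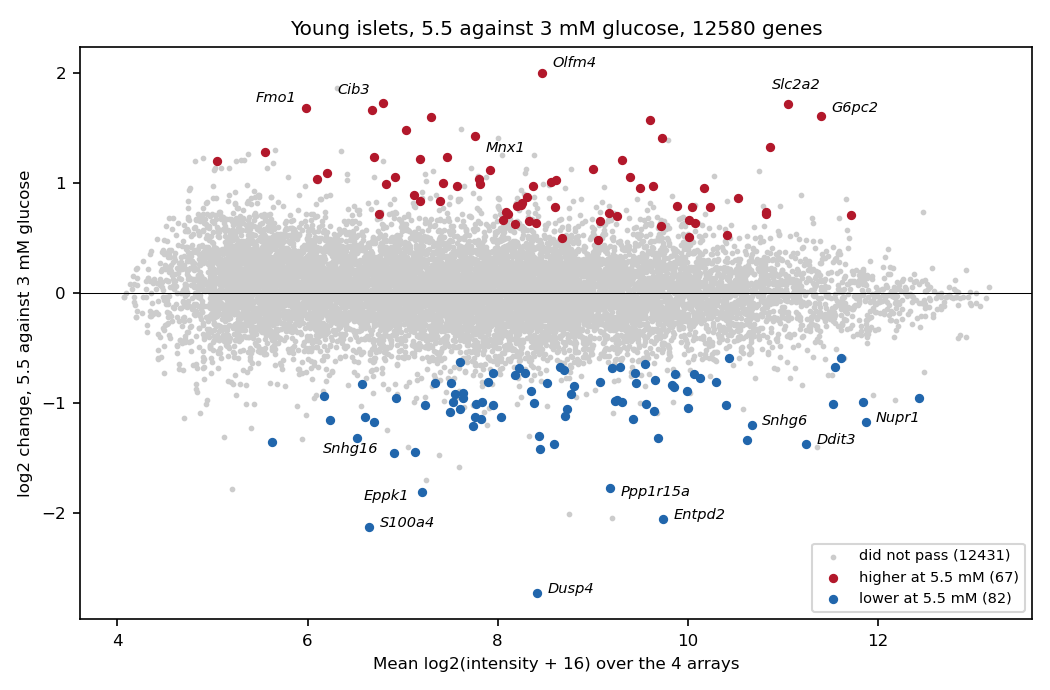
Each point is 1 of 12580 genes, with the mean log2(intensity + 16) over the 4 arrays on the horizontal axis and the log2 change at 5.5 against 3 mM glucose on the vertical axis. The 67 genes that rose (red) and the 82 that fell (blue) spread over the range of levels, with Olfm4 at the top, Dusp4 at the bottom, and Slc2a2 and G6pc2 the brightest of the labelled rises.

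Genes by which beta cells sense glucose rose at the first step. Slc2a2, the main glucose transporter of rodent beta cells, had signals of 1282 and 1049 at 3 mM and 3618 and 4134 at 5.5 mM. Both arrays at 5.5 mM lay far above both at 3 mM, a rise of 1.72 on the log2 scale (SE 0.37, 2 arrays per group, limma adjusted p = 0.0278). G6pc2, the islet glucose-6-phosphatase, stood at 1559 and 1503 at 3 mM and at 4252 and 5198 at 5.5 mM, a rise of 1.61 (SE 0.27, limma adjusted p = 0.0059). Mnx1, a homeobox transcription factor of beta cell development, stood at 139 and 97 against 339 and 344, a rise of 1.43 (SE 0.24, limma adjusted p = 0.00545). The 5.5 mM arrays of G6pc2 differed more from each other than the 3 mM arrays did, and those of Mnx1 less.

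Pdx1, the transcription factor that activates insulin and Slc2a2 in beta cells, had signals of 486 and 579 at 3 mM and 1329 and 1512 at 5.5 mM. Its arrays did not overlap, yet its change of 1.39 (SE 0.34) missed the threshold (limma adjusted p = 0.0514), and it passed with the array set factor (adjusted p = 0.00335) and with the replicate block (adjusted p = 8.68e-07). A further probe set of Pdx1 gave 1.24. Pcsk1, the convertase that starts the cutting of proinsulin, gave 622 and 528 against 994 and 952, a change of 0.75 (SE 0.18) with a limma adjusted p of 0.0529, and 0.0136 with the array set factor. Ins2, which encodes insulin, gave 3177 and 4549 at 3 mM and 2230 and 2266 at 5.5 mM, so its probe set was dimmer at the higher glucose. This single kept probe set was also dimmer than those of Gcg and Sst on every array compared. How well it follows the insulin transcript was not tested, so no conclusion on that transcript is drawn from its change. The Ins2 change of -0.75 did not pass (limma adjusted p = 0.242, 0.0511 with the array set factor and 0.0227 with the replicate block). Of the list of beta cell function and glucose sensing, 24 of 30 genes were tested, of which Slc2a2, G6pc2 and Mnx1 rose and none fell, with a median of 0.30 beside 0.02 over all genes. With the array set factor 8 rose (2.97% of all genes did). With the replicate block 9 rose and 1 fell, beside 6.0% and 5.65% of all genes. Without 1 of the 4 arrays, the limma adjusted p of the 3 genes that rose ranged from 0.0161 to 0.303. Ins1 and Mafa were not analysed here.

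The largest rise over all genes was that of Olfm4, which encodes a secreted glycoprotein. Its signals of 175 and 147 at 3 mM became 574 and 829 at 5.5 mM, a change of 2.0 (SE 0.29, limma adjusted p = 0.00304). It was the only member of 15 tested neuropeptide and secreted peptide genes to pass, and the median of that list was 0.28. Both arrays at 5.5 mM were more than 3 times as bright as either array at 3 mM. Aqp4, a water channel, rose from 67 and 59 to 172 and 240 (log2 change 1.48, SE 0.21, limma adjusted p = 0.00302). Fkbp1b, which binds the calcium release channel of the endoplasmic reticulum, rose from 498 and 511 to 1223 and 1530 (1.41, SE 0.30). Fer1l6, of the ferlin family of membrane proteins, rose from 82 and 68 to 197 and 339 (1.6, SE 0.32). In Olfm4, Aqp4, Fkbp1b and Fer1l6 the groups did not overlap, as in every called gene. In each the brighter of the arrays at 5.5 mM was replicate 2.

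P2ry12, a receptor for ADP, rose from a dim 15 and 13 to 57 and 57 (1.28, SE 0.27, limma adjusted p = 0.0215). Fzd7, a Wnt receptor, rose from 127 and 77 to 256 and 257 (1.24, SE 0.24, limma adjusted p = 0.0159). Muc4, a membrane mucin, rose from 332 and 330 to 610 and 911 (1.13, SE 0.24, limma adjusted p = 0.0216), and a further probe set of it gave 1.25. Cd44, the hyaluronan receptor, rose from 513 and 398 to 904 and 998 (1.05, SE 0.22, limma adjusted p = 0.0209), but as the mean of its probe sets it gave 0.66 without passing (adjusted p = 0.143). As in every called gene, the groups did not overlap in these 4. The serine protease gene Prss53 rose from 560 and 337 to 1231 and 1429 (1.57, SE 0.28, limma adjusted p = 0.00711). The kinase gene Stk26 rose from 414 and 389 to 742 and 1208 (1.21, SE 0.17, limma adjusted p = 0.00304), which as the mean of its probe sets was 0.59 (adjusted p = 0.505). The other large rises were Cib3, Fmo1, Gm10941, B830017H08Rik, Hspa12a, Rnf182, Olfr140, Fam184b, Nav3, Pkib, Zfhx2 and B3galt5. Of these Hspa12a, Rnf182, Fam184b and Pkib did not pass as the mean of their probe sets. Fmo1, a flavin monooxygenase gene, had a wide spread at 5.5 mM, with signals of 47 and 187 against 16 and 23 at 3 mM.

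Some genes of granule docking and release rose. Sytl4, which encodes the granule protein granuphilin, was the only one of 24 tested members of the granule docking and exocytosis list to pass. Its signals were 1558 and 1244 at 3 mM and 2362 and 2260 at 5.5 mM, a rise of 0.72 (SE 0.15, limma adjusted p = 0.0249, and 0.0604 to 0.295 without 1 array). The list had a median of 0.10, and 4 members rose with the array set factor, as did 2.97% of all genes. Outside the list, and chosen after their values were seen, Cadps and Cadps2, which prime dense core granules for release, passed too. Cadps had 969 and 846 at 3 mM and 1570 and 1559 at 5.5 mM (0.78, SE 0.18, limma adjusted p = 0.0336), and Cadps2 had 136 and 152 against 261 and 349 (0.99, SE 0.16, limma adjusted p = 0.00483). Pclo, a scaffold of release sites, had 807 and 829 against 1478 and 1712 (0.95, SE 0.21, limma adjusted p = 0.0304), and Stxbp6, which binds the SNARE complex, had 229 and 199 against 384 and 383 (0.80, SE 0.17, limma adjusted p = 0.0244). A further probe set of Stxbp6 gave 0.40, and the mean of both gave 0.60 without passing (adjusted p = 0.0656). As for every called gene, the signals of these 4 at 5.5 and 3 mM did not overlap. Exph5, a partner of the granule GTPase Rab27a, had 590 and 589 against 751 and 976 and did not pass (0.53, limma adjusted p = 0.109).

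None of the 23 tested targets of ChREBP and genes of lipogenesis passed, although their median of 0.21 lay above that of all genes. ChREBP is the transcription factor through which glucose metabolites act on the genome. Txnip, the thioredoxin-binding protein gene that is its best known target in islets, had signals of 356 and 370 at 3 mM and 406 and 353 at 5.5 mM. These overlapped, with a change of 0.06 (SE 0.21, limma adjusted p = 0.966). Mlxipl, the gene of ChREBP itself, stood at 1615 and 1417 against 2627 and 2612, a change of 0.79 without overlap that missed the threshold (limma adjusted p = 0.134, and 0.000612 with the replicate block). Acly, which makes cytosolic acetyl-CoA, stood at 2413 and 2449 against 3836 and 3980, a change of 0.68 (limma adjusted p = 0.116) that passed with the array set factor (adjusted p = 0.0073). In the list as a whole 2 members rose with that factor and 7 with the replicate block, beside 2.97% and 6.0% of all genes. Of 19 tested cholesterol synthesis genes, 19 of fatty acid oxidation and 29 of the cell cycle none passed, and their medians were 0.13, -0.06 and 0.00.

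CHOP and stress genes that act with it fell over the same step. Ppp1r15a, also known as GADD34, whose product guides a phosphatase to the initiation factor that the stress response phosphorylates, had signals of 1001 and 1118 at 3 mM and 316 and 282 at 5.5 mM. Both arrays at 5.5 mM lay far below both at 3 mM, a change of -1.77 (SE 0.25, limma adjusted p = 0.00302). Ddit3, which encodes CHOP itself, had 3901 and 3908 against 1756 and 1279 (-1.37, SE 0.27, limma adjusted p = 0.0157). Nupr1, a stress-induced chromatin protein gene, had 5044 and 6232 against 2471 and 2509 (-1.17, SE 0.22, limma adjusted p = 0.0125). A second probe set of Nupr1 gave -1.59 and one of Ddit3 gave -0.46, and as the mean of its probe sets Ddit3 gave -0.92 without passing (adjusted p = 0.12). The 3 mM arrays of Ddit3 were nearly equal and those at 5.5 mM were apart, whereas in Nupr1 it was the reverse.

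Other members of the response did not pass. Atf4 had signals of 3081 and 3527 at 3 mM and 2881 and 3057 at 5.5 mM (-0.15, limma adjusted p = 0.755). Asns, which makes asparagine and is an ATF4 target, had 2270 and 2233 against 2399 and 2243 (0.04, limma adjusted p = 0.967), and Chac1, a glutathione-degrading enzyme gene, had 1019 and 1050 against 1102 and 1175 (0.14, limma adjusted p = 0.918). The pseudokinase gene Trib3, a CHOP target, had 2464 and 3233 against 1921 and 1606, with no overlap but a change of -0.68 that did not pass (limma adjusted p = 0.438, and 0.0931 with the replicate block). Atf3, a transcription factor gene of the same response, had 93 and 152 against 43 and 58, without overlap. Its change of -1.03 did not pass (limma adjusted p = 0.179), and it passed with the replicate block (adjusted p = 0.0331). Atf3, Atf4, Asns and Chac1 were chosen after their values were seen. Of the 18 genes of the CHOP and integrated stress response list 16 were tested, 3 fell, none rose and 13 did not pass, and the median was -0.36. With the array set factor 4 fell, among them Eif4ebp1, a brake on translation (2033 and 2381 against 1091 and 1006, -1.06, adjusted p = 0.00645 and 0.0917 without the factor). With the replicate block 5 fell. Over all genes 3.08% fell with the array set factor and 5.65% with the block. Without 1 array the limma adjusted p of the 3 genes ranged from 0.006 to 0.301. None of 19 tested genes of amino acid synthesis, transport and tRNA charging passed (median -0.13), and none of 29 endoplasmic reticulum chaperone and unfolded protein response genes (median -0.07).

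The promoters of 3 genes that fell are shown as examples. Ppp1r15a and Nupr1 are members of the stress list, and Chchd10 is the only other fall with TGATGNAA. The examples were chosen for having a match. For Ddit3, the remaining stress list gene that fell, no match to a searched motif was found. Each is the 120 bases before the start of the gene in RefSeq, build GRCm38.p6, written 5′ to 3′ on the strand of the gene, with the matched bases in capitals. Ppp1r15a (chr7:45526269-45526388, minus strand) has TGACGTCA, the cAMP response element, 12 bases before the start. Nupr1 (chr7:126625471-126625590, minus strand) has TGATGNAA, the composite element of ATF4 and C/EBP proteins such as CHOP, on the opposite strand 110 bases before the start. Chchd10 (chr10:75933010-75933129, plus strand), a mitochondrial protein gene described further on, has TGATGNAA at 85 and again at 72 bases before the start.
Ppp1r15a: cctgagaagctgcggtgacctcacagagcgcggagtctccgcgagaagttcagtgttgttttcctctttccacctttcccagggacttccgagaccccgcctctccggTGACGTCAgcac
Nupr1: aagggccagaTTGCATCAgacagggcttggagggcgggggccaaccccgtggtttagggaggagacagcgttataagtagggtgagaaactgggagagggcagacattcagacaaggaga
Chchd10: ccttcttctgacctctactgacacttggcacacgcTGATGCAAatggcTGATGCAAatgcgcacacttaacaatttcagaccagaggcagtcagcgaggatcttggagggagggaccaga

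Motifs were searched on both strands from 250 bases before to 50 bases after the start, in the first listed promoter of each gene, which RefSeq gave for 10203 of the genes tested, 52 of those that rose and 73 of those that fell. TGATGNAA was in 2.22% of all promoters, in 2.74% of those of genes that fell (2 genes) and in 0 of those of genes that rose. TGACGTCA was in 3.25% of all, 4.11% of the falls (3 genes) and 7.69% of the rises (4 genes). Besides Ppp1r15a it was in Cmss1 and Bcas2 among the falls, and in Gusb, Abitram, Ankrd13c and Tenm3 among the rises. CACGTG, the E-box, was in 10.2% of all, 12.3% of the falls and 9.62% of the rises. The forkhead motif GTAAACA was in 2.54% of all, 1.37% of the falls and 3.85% of the rises, and the sterol element was in 0.157% of all and in none of either list. These shares describe letters in the windows and not bound sites.

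The largest fall over all genes was that of Dusp4, a phosphatase that switches off MAP kinases in the nucleus. Its signals were 1058 and 708 at 3 mM and 205 and 64 at 5.5 mM. The change was -2.73 (SE 0.44, limma adjusted p = 0.00482), and replicate 2 at 5.5 mM was the lowest of the 4 arrays. It was the only one of 30 tested immediate early and MAP kinase phosphatase genes to pass (median -0.07). With the array set factor 1 rose and 2 fell, beside 2.97% and 3.08% of all genes. Srf, the transcription factor that drives immediate early and actin genes, had 580 and 479 against 227 and 184 (-1.30, SE 0.24, limma adjusted p = 0.012), and as the mean of its probe sets -0.97 (adjusted p = 0.0706). Maff, a small transcription factor gene of the same list, had 162 and 158 against 65 and 52, a change of -1.25 that did not pass (limma adjusted p = 0.116, and 0.00265 with the replicate block). All 3 genes had both arrays at 5.5 mM below both at 3 mM. Rasgrf1, an activator of Ras, and Gab2, a signalling adaptor, were chosen after their values were seen. Rasgrf1 fell from 1221 and 1240 to 674 and 671 (-0.86, limma adjusted p = 0.0197) and Gab2 from 567 and 599 to 334 and 298 (-0.85, limma adjusted p = 0.00534). As the mean of their probe sets both gave -0.25 without passing (adjusted p = 0.607 for Rasgrf1 and 0.708 for Gab2).

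Entpd2, an enzyme on the cell surface that breaks down extracellular ATP, had signals of 1350 and 2220 at 3 mM and 449 and 363 at 5.5 mM, a change of -2.06 (SE 0.25). It had the smallest adjusted p among the genes named here (limma adjusted p = 0.000928), and its 3 mM arrays differed from each other by more than the 5.5 mM arrays did. Slc2a1, the glucose transporter found in most cells, moved opposite to Slc2a2. It had 554 and 657 at 3 mM and 207 and 243 at 5.5 mM (-1.37, SE 0.31, limma adjusted p = 0.0336), and further probe sets of it gave -1.27 and -0.80. As the mean of its probe sets it gave -1.15 without passing (adjusted p = 0.0914), and without 1 array its limma adjusted p was 0.141 to 0.264. It was the only one of 24 tested genes of glycolysis and the hypoxia response to pass, in a list with a median of 0.01. Slco1a5, an organic anion transporter gene, had 141 and 118 against 45 and 39 (-1.32, SE 0.27, limma adjusted p = 0.0176). A further probe set of it gave -0.51, and as the mean of its probe sets it gave -0.92 without passing (adjusted p = 0.135).

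S100a4, a calcium-binding protein gene, had signals of 225 and 167 at 3 mM and 32 and 32 at 5.5 mM, a change of -2.13 (SE 0.48, limma adjusted p = 0.0336). Eppk1, which encodes the cytoskeletal linker epiplakin, had 247 and 276 against 59 and 67 (-1.81, SE 0.28, limma adjusted p = 0.00426). Wdr1, a cofactor of actin filament disassembly, had 622 and 496 against 250 and 156 (-1.42, SE 0.23, limma adjusted p = 0.00482). The groups were far apart in each of these. The further probe sets of Wdr1 gave -0.43 and 0.15, and as their mean it was at -0.57 (adjusted p = 0.533). Rala, a small GTPase of vesicle tethering, had 1357 and 1229 against 598 and 432 (-1.32, SE 0.21, limma adjusted p = 0.00482), with further probe sets at -1.06 and 0.75. As the mean of its probe sets Rala gave -0.54 without passing (adjusted p = 0.18). Kif3a, a kinesin motor subunit, had 372 and 279 against 177 and 104 (-1.15, SE 0.22, limma adjusted p = 0.0137), and as the mean of its probe sets -0.36 (adjusted p = 0.375). Over all 149 genes, 88 had 151 further kept probe sets, of which 108 had the same sign and 53 had at least 0.5 times the log2 change. The remaining large falls were 2410006H16Rik, Afap1, Agap1, Bola1, Clpb, Dleu2, Plet1, Ubac2, Urah and Zim1. Of these Afap1, Agap1, Dleu2 and Plet1 did not pass as the mean of their probe sets.

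Host genes of small nucleolar RNAs fell. Small nucleolar RNAs guide the chemical modification of ribosomal RNA and are cut from introns of these genes, whose spliced transcripts are often short-lived when translation is active. Snhg16 had signals of 202 and 166 at 3 mM and 63 and 50 at 5.5 mM (-1.46, SE 0.22, limma adjusted p = 0.00408), and a further probe set of it gave -0.24. Snhg6 had 2451 and 2474 against 1260 and 894 (-1.20, SE 0.19, limma adjusted p = 0.00482). Snhg12 had 834 and 827 against 471 and 360 (-0.98, SE 0.17, limma adjusted p = 0.00695) and Zfas1 had 686 and 717 against 456 and 337 (-0.81, SE 0.17, limma adjusted p = 0.0197). In all 4 genes replicate 2 at 5.5 mM was the lowest array. Of 11 tested host genes 4 fell, none rose and 7 did not pass, with a median of -0.81 beside 0.02 over all genes. The array set factor gave 6 falls, beside 3.08% of all genes. Gas5, another host gene, chosen after its values were seen, did not pass, with 1948 and 2150 against 2063 and 1850 (-0.07, limma adjusted p = 0.956). Without 1 array the limma adjusted p of the 4 genes ranged from 0.00431 to 0.396.

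Of the falls, Ndufaf4, Surf1, Chchd10 and Mrps30 were chosen after their values were seen, and no list of mitochondrial genes was counted. Ndufaf4, an assembly factor of respiratory complex I, had signals of 857 and 894 at 3 mM and 431 and 436 at 5.5 mM (-0.99, SE 0.15, limma adjusted p = 0.004). Surf1, an assembly factor of cytochrome oxidase, had 1742 and 1624 against 1259 and 979 (-0.59, SE 0.13, limma adjusted p = 0.0336). Chchd10, a protein of the intermembrane space, had 3445 and 5077 against 2056 and 2080 (-1.01, SE 0.21, limma adjusted p = 0.025). The groups of each gene were separate, most evenly in Ndufaf4. Clpb, a disaggregase of mitochondria and among the 25 largest falls, had 315 and 294 against 177 and 95 (-1.13, SE 0.26, limma adjusted p = 0.038), and Mrps30, a mitochondrial ribosomal protein, had 503 and 443 against 328 and 205 (-0.82, SE 0.19, limma adjusted p = 0.038). As the mean of its probe sets Ndufaf4 gave -0.42 without passing (adjusted p = 0.0706).

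Few members of the lists tied to low fuel passed at this step. Among 23 tested FOXO targets and low-fuel genes, Klf15, a transcription factor of fasting metabolism, fell from 290 and 298 to 185 and 102 (-1.01, SE 0.23, limma adjusted p = 0.038), and the median was -0.05. Depp1, a FOXO target, had 1028 and 1367 at 3 mM and 257 and 293 at 5.5 mM, a change of -2.05 that missed the threshold (SE 0.52, limma adjusted p = 0.0589) and passed with the array set factor (adjusted p = 0.00694). Its groups were far apart, and a further probe set of it gave -2.12. Among 19 glycogen genes, Gyg, the primer of glycogen synthesis, fell from 1156 and 1220 to 800 and 621 (-0.74, SE 0.15, limma adjusted p = 0.0176). As the mean of its probe sets Gyg gave -0.57 without passing (adjusted p = 0.149). Stbd1, which tethers glycogen to membranes, had 1310 and 1067 against 805 and 371 (-1.09, SE 0.28, limma adjusted p = 0.0635, and 0.0214 with the array set factor). Without 1 array the limma adjusted p of Klf15 was 0.0107 to 0.613 and that of Gyg 0.0127 to 0.368.

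None of 17 tested cytosolic heat shock genes passed, with a median of -0.34. Hspa1b, an inducible chaperone gene, had the widest change among them, with signals of 694 and 1044 at 3 mM and 187 and 211 at 5.5 mM (-2.01, SE 0.66, limma adjusted p = 0.15). It passed with the replicate block (limma adjusted p = 0.0017). In that fit 6 members of the list passed, all lower, beside 5.65% of all genes that fell. Dnajb1, its co-chaperone, had 1198 and 1252 against 740 and 704 (-0.75, limma adjusted p = 0.0837). Of 14 tested metallothionein and zinc transporter genes none passed (median 0.14). Mt2, a metallothionein that binds zinc, had 5485 and 5408 against 3437 and 2374, a change of -0.93 with separate groups (SE 0.25, limma adjusted p = 0.0787, and 0.0278 with the array set factor). None of 20 NRF2 and antioxidant genes (median -0.20), 23 Myc targets and ribosome biogenesis genes (median -0.17) or 18 circadian clock genes (median 0.02) passed. Myc had 269 and 225 against 159 and 99 (-0.89, limma adjusted p = 0.178, and 0.00649 with the replicate block).

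**Figure D2:**
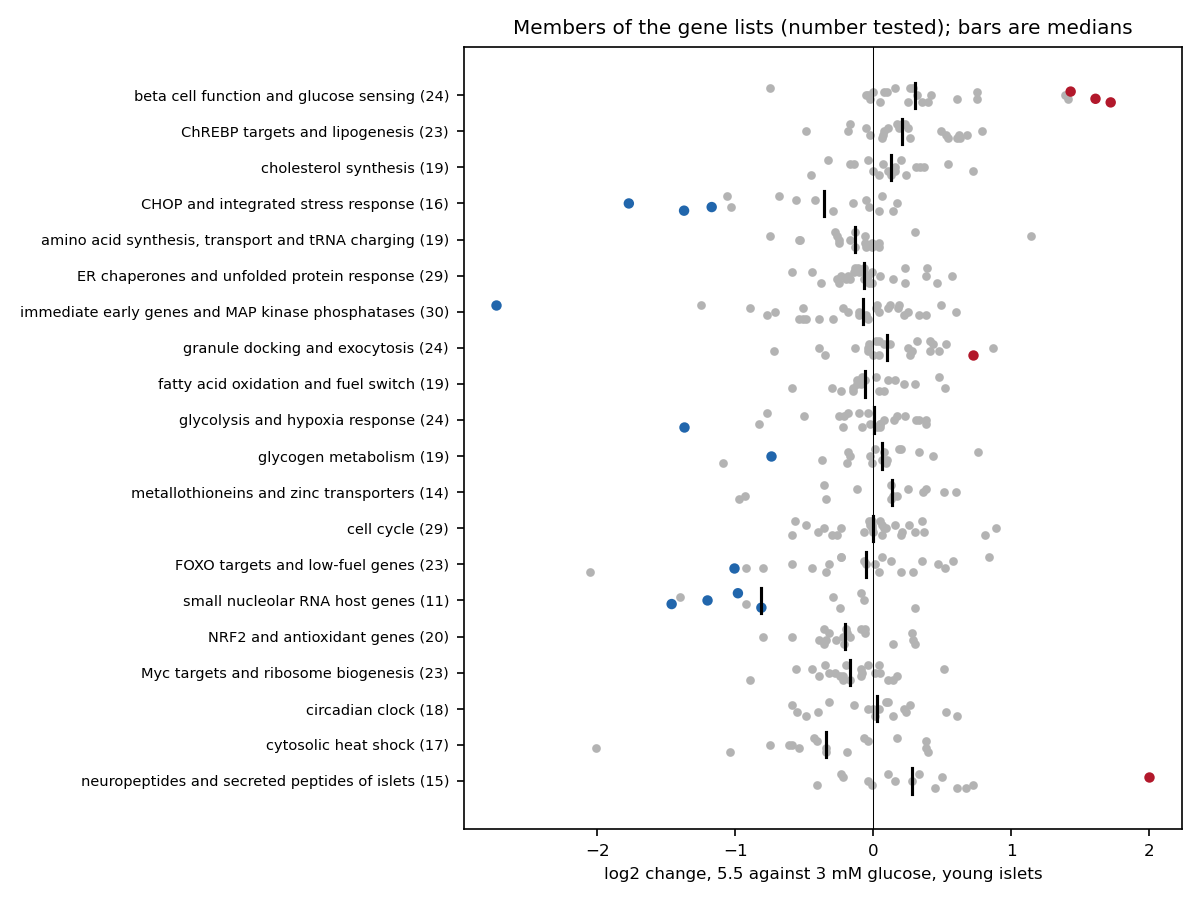
Each point is 1 tested member of a gene list, with its log2 change at 5.5 against 3 mM glucose in young islets on the horizontal axis, red where it rose, blue where it fell and grey where it did not pass. Black bars are list medians, which run from -0.81 for the small nucleolar RNA host genes to 0.30 for the beta cell genes.

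In the fit over all arrays no marker of another cell type passed in any of 9 lists. With the array set factor 2 of 16 macrophage markers rose and no other marker passed. With the replicate block 2 macrophage markers, 1 alpha cell, 1 acinar and 1 Schwann cell marker rose and 2 of 8 ductal markers fell. Over all genes tested, 6.06% passed with the array set factor and 11.7% with the replicate block. The summed signal of 7 alpha cell markers was 16352 and 20177 at 3 mM and 17525 and 18811 at 5.5 mM, and that of 6 delta cell markers was 14110 and 15928 against 14404 and 16003. Both sums overlapped between the concentrations. The 13 endothelial markers summed to 571 and 645 against 560 and 780, and the 16 markers of macrophages and antigen presenting cells to 1901 and 1566 against 1986 and 1846. The 8 ductal markers summed to 8537 and 8380 against 7630 and 7294, which did not overlap. The 14 acinar markers summed to 883 and 1126 against 732 and 1166, and their median change of -0.67 was the lowest of the marker lists, the others running from -0.04 to 0.13. The 13 fibroblast and stellate cell markers summed to 4078 and 4059 against 4290 and 4767, higher without overlap, and their median was 0.09. The 5 Schwann cell and neuron markers summed to 921 and 1014 against 1260 and 1076, also higher without overlap. Among single genes tested, 48.6% had arrays that did not overlap. No marker was at 0 on any of the 4 arrays, except 1 delta cell marker on an array at 5.5 mM. Outside the lists, and chosen after their values were seen, Lyve1 and Alox5ap, which resident macrophages express, rose. Lyve1 had 118 and 94 at 3 mM and 223 and 231 at 5.5 mM (1.0, SE 0.21, limma adjusted p = 0.0262, and 0.203 as the mean of its probe sets), and Alox5ap had 90 and 83 against 162 and 187 (0.89, SE 0.18, limma adjusted p = 0.0209). In the list of macrophages and antigen presenting cells 7 of 16 tested markers had a change above 0, with a median of -0.02. The part of any cell type in the changes given here was not tested.

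The levels at 5.5 mM were set beside those at 11 and 16 mM as a description, since those comparisons share the arrays at 5.5 or 3 mM. At 11 mM replicates 1 and 2 lay in the array set of the other young cultured islets and replicates 3 and 4 in the other set, so only replicates 1 and 2 are given from 11 mM in this paragraph. Some genes had reached their level at 5.5 mM. Slc2a1 was at 221 and 209 at 11 mM and 208 and 254 at 16 mM, beside 207 and 243 at 5.5 mM. Eppk1 was at 69 and 74 and then 73 and 57, beside 59 and 67 at 5.5 mM. Pdx1 was at 1765 and 1696 and then 1685 and 1587, close above its 1329 and 1512. Other genes had gone only part of the way. Ddit3 dropped further to 257 and 251 at 11 mM and 258 and 226 at 16 mM, Nupr1 to 346 and 594 and then 521 and 734, and Snhg6 to 464 and 503 and then 423 and 573. Stbd1, at 805 and 371 at 5.5 mM, was at 39 and 40 at 11 mM and 32 and 36 at 16 mM. Entpd2 was at 114 and 135 at 11 mM and 100 and 120 at 16 mM, again far under its 449 and 363.

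Among the rises, Slc2a2 was at 6589 and 4819 at 11 mM and 6104 and 4994 at 16 mM, and G6pc2 at 6701 and 6749 and then 7125 and 9883, above the levels at 5.5 mM. Fer1l6 was at 741 and 1021 and then 900 and 879, beside 197 and 339 at 5.5 mM. Pcsk1 and Txnip showed most of their increase above 5.5 mM. Pcsk1 was at 1734 and 2715 at 11 mM and 3314 and 4603 at 16 mM, and Txnip at 722 and 876 and then 1650 and 1945. Some genes were brightest at 5.5 mM. Insyn2a was at 92 and 93 at 3 mM, 196 and 161 at 5.5 mM, 84 and 52 at 11 mM and 53 and 52 at 16 mM, and Cadps2 was at 196 and 238 at 11 mM and 187 and 227 at 16 mM, under its 261 and 349 at 5.5 mM. Insyn2a, an inhibitory synapse factor gene, was chosen after its values were seen. Its call ended when each of the 4 arrays was left out in turn, with or without the array set factor. It also ended with an offset of 1, without the filter, with quantile normalization, as the mean of its probe sets, in a fit of the 4 arrays alone and in a fit of young cultured islets alone.

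**Figure D3:**
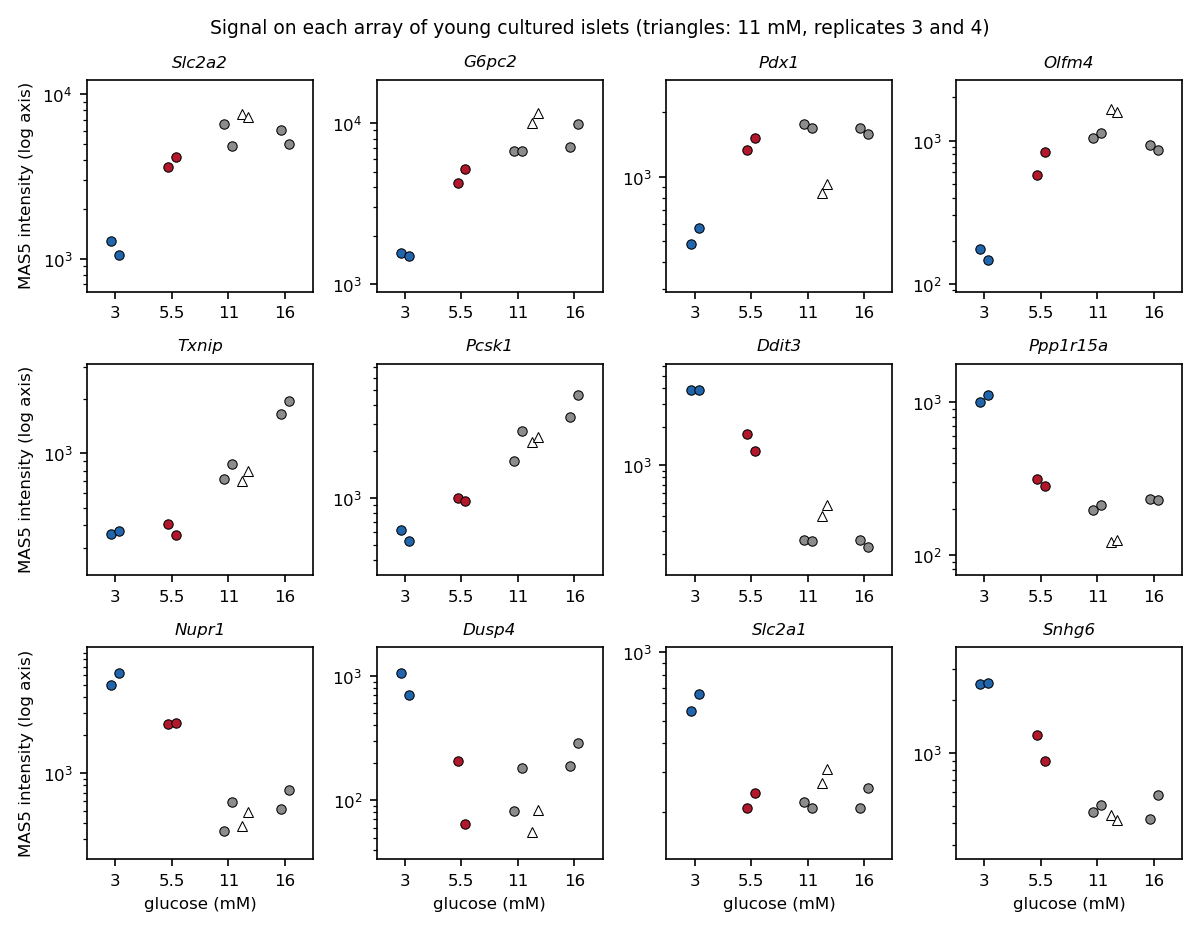
Each panel gives the MAS5 intensity of 1 gene on a logarithmic axis for every array of young cultured islets at 3, 5.5, 11 and 16 mM glucose, with replicates 3 and 4 of 11 mM, which lie in the other array set, as triangles. Slc2a1 and Dusp4 were near their levels at 11 and 16 mM already at 5.5 mM, Ddit3 and Nupr1 were between, and the signals of Txnip at 5.5 mM overlapped those at 3 mM.

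Islets of mice aged 56 weeks, cultured the same way, gave a comparison of 5.5 with 3 mM on 4 other arrays, all in the array set with the high Gapdh ratio. There 83 genes passed (0.66%), of which 46 were higher (0.366%) and 37 lower (0.294%). The array set factor gave 590 (4.69%). Of the 149 genes called in young islets 145 had the same sign in old islets (97.3%, against 67.7% of all genes), and 37 passed in the same direction. These 37 are 24.8% of the young list and 44.6% of the old list. All 67 genes that rose in young islets were higher in old islets, 23 of them past the threshold. Slc2a2 in old islets had 817 and 695 at 3 mM and 2520 and 2460 at 5.5 mM (1.70, limma adjusted p = 0.0376), and G6pc2 had 1321 and 1585 against 4754 and 5352 (1.79, limma adjusted p = 0.00489). Olfm4 had 213 and 170 against 738 and 749 (1.88, limma adjusted p = 0.00489). Young minus old, the changes of these 3 genes differed by 0.02 (SE 0.53), -0.18 (SE 0.38) and 0.12 (SE 0.41). Gm10941 had the largest rise among the 37, by 2.19 from 16 and 17 to 128 and 137, against 1.66 in young islets.

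The falls were smaller in old islets by their medians. The 82 genes had a median of -0.99 in young and -0.55 in old islets, while the 67 rises had 0.95 and 0.68. The change was larger in size in young islets for 51 of the rises and 76 of the falls. A list chosen for passing in young islets is larger there in part by that choice. Of the falls 78 had the same sign in old islets and 14 passed, among them Dusp4 (501 and 401 against 105 and 89, -2.04, limma adjusted p = 0.0362), Eppk1 (240 and 192 against 47 and 67, -1.67, limma adjusted p = 0.00806) and Ppp1r15a (651 and 608 against 318 and 250, -1.11, limma adjusted p = 0.0389). Nupr1 in old islets had 6567 and 5969 at 3 mM and 6709 and 4420 at 5.5 mM, which overlapped (-0.20, limma adjusted p = 0.83). Entpd2 had 395 and 444 against 253 and 200 (-0.85, limma adjusted p = 0.111), and Ddit3 had 5125 and 4540 against 3571 and 2209 (-0.78, limma adjusted p = 0.206). Snhg16 fell at both ages, by -1.43 in old islets (limma adjusted p = 0.00514), and Zfas1 had 1347 and 1439 against 524 and 446 there (-1.5, limma adjusted p = 0.000289).

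The difference between the ages was tested for every gene in the limma fit. No gene passed, 0 of 12580 by limma, and 313 had an unadjusted p under 0.05 (2.49%). The count was also 0 with the array set factor, with the replicate block, with quantile normalization, with the mean of probe sets and without any 1 array. Of the 149 genes, 2 of the rises and 33 of the falls had such an unadjusted p for the difference. These genes were chosen by the young change that enters the difference, which favours a small p, so no conclusion is drawn. Young minus old, Entpd2 differed by -1.21 (SE 0.35), Nupr1 by -0.97 (SE 0.31) and Steap1, a metalloreductase gene, by -0.95 (SE 0.30), each with a limma adjusted p of 1.0. Steap1 was chosen after its values were seen. It had 1267 and 1490 against 769 and 700 in young islets and 570 and 542 against 716 and 469 in old islets, which overlapped. Afap1, Slco1a5, Steap1 and Tmem160 were the 4 falls with a change above 0 in old islets, at 0.07, 0.35, 0.06 and 0.18. Age and array set cannot be told apart in the difference, since the young arrays lie in 1 set and the old arrays in the other.

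**Figure D4:**
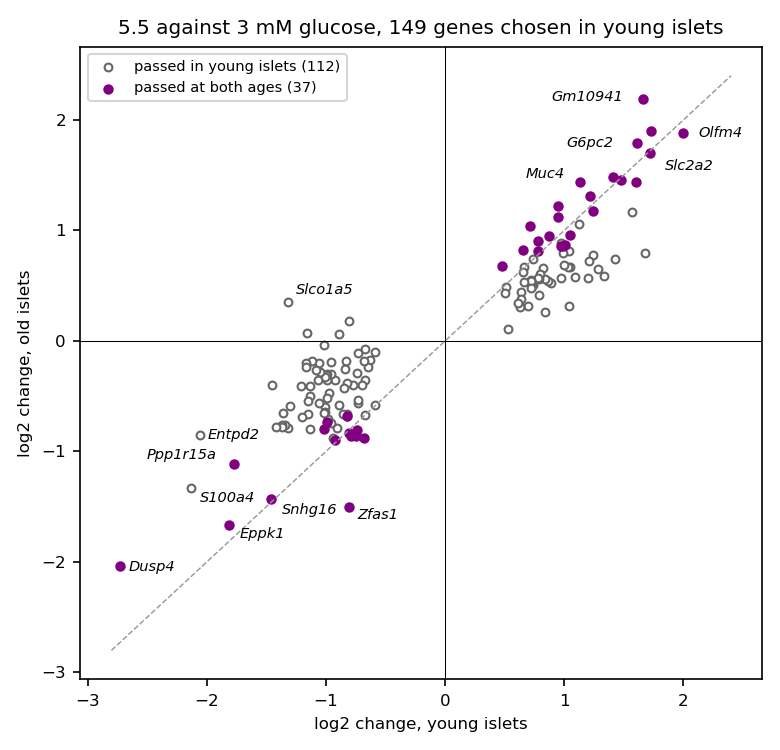
Each point is 1 of the 149 genes that passed in young islets, with its log2 change at 5.5 against 3 mM in young islets on the horizontal and in old islets on the vertical axis, filled where it passed at both ages (37 genes), and the dashed line marks equal changes. Most falls (76 of 82) lie nearer to 0 in old islets than in young islets, and 4 falls lie above 0 in old islets.

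Young islets moved from overnight culture at 3 mM to 11 mM for 4 h gave a shorter exposure on separate arrays of the same array set. At 4 h against time 0, 621 genes passed (4.94%), with 311 higher (2.47%) and 310 lower (2.46%). Of the 149 genes, 120 had the same sign (80.5%, against 60.4% of all genes), and 30 passed in the same direction, 7 of the rises and 23 of the falls. The replicate numbers were assumed to pair the time course arrays as well. With the replicate block and array set 2085 genes passed (16.6%), among them 58 of the 149 in the same direction and 7 in the opposite one. Ddit3 had signals of 3681 and 3397 at time 0 and 308 and 423 at 4 h (-3.24, limma adjusted p = 2.42e-06), and its signals at 4 h lay below those after 2 days at 5.5 mM, which was not tested across these experiments. Ppp1r15a had 697 and 935 against 258 and 270 (-1.56, limma adjusted p = 0.00114), Dusp4 had 836 and 1313 against 184 and 279 (-2.13, limma adjusted p = 0.00779) and Snhg16 had 145 and 189 against 54 and 47 (-1.45, limma adjusted p = 0.000873). Both replicates of these genes were lower at 4 h. Snhg6, with 1171 and 1391 against 940 and 1163, did not pass (-0.28, limma adjusted p = 0.546). Slc2a2 had 2394 and 1251 against 1642 and 698, lower at 4 h in both replicate numbers. That change of -0.68 did not pass (limma adjusted p = 0.394), and it passed with the replicate block (adjusted p = 0.0018). Olfm4 had 314 and 189 against 316 and 172 (-0.06, limma adjusted p = 0.969). Txnip had 328 and 259 against 884 and 773 (1.45, limma adjusted p = 0.00051), whereas its signals at 5.5 and 3 mM overlapped after 2 days. Tmem215, Insyn2a, Socs2 and Nudt7, which rose at 5.5 mM, were the 4 genes that passed in the opposite direction at 4 h without the block, at -0.60, -0.97, -0.90 and -0.73, and were chosen after their values were seen. The time course has no islets kept at 3 mM for the same hours.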

How the data were processed

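Total RNA of islets was measured on 26 arrays, of which 4 enter the comparison. Per the submitters' processing notes, the authors computed the deposited linear intensity of each probe set with MAS5, whose version is not given in the sources used here, and the mean after trimming 2% at each end was 150.0 to 150.01 on every array. Per the labels' protocols, RNA was labelled through a pair of cDNA synthesis cycles. Precision is limited by the number of arrays.

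Of 45101 probe sets, the platform annotation gives 1 symbol to 34945, several to 932 and no symbol to 9160, besides 64 controls; 34741 symbols were updated through Entrez identifiers (GRCm38.p6, names only). Values were used as log2(value + 16) without further scaling. Probe sets with 1 symbol had to exceed the median of their array on 2 or more of 26 arrays (23047), the brightest standing for its gene (12580 genes). Limma 3.58.1 in R 4.3.3 fitted 12 group means over all 26 arrays with an intensity trend (14 residual and 5.33 prior degrees of freedom); SE is its moderated standard error. In simulated data with 200 changed genes, the comparison recovered 11.9% of log2 changes of 0.5, 55.2% of 1 and 92.4% of 2, with 6 false calls of 112. The simulated noise was independent between genes and arrays, without shared deviations of replicates or a difference between array sets. These rates therefore need not hold for the measured arrays. Array sets were split at a Gapdh ratio of 0.5. The deviations from group means of arrays with the same replicate number correlated at 0.33 between 3 and 5.5 mM and at 0.169 to 0.417 over the 6 pairs of young cultured groups, and at 0.551 to 0.63 over the pairs of time course groups, which was taken as pairing.

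Members and gene lists were chosen with earlier results of these data known. Named genes are the 25 largest rises and falls past the threshold without overlap, list members past it, the members with the smallest adjusted p (up to 4 a list), and a short set of islet genes; others are said to be chosen after their values were seen.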

Additional observations from a re-analysis of the deposited data

Results flagged for a closer look

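Young islets at 11 mM, the next concentration of the series, had 4 arrays, and of 158 named genes 7 (4.43%) had 1 array whose gap to the nearest other was large for the range of the group (Dixon's test at 95%, which chance passes in about 1 of 20 groups, so the share is no more than chance gives). The outlying signals were 199 in Agap1, 129 in Hspa12a and 1478 in Pclo, each the lowest of its group, and 332 in Aqp4, 418 in B3galt5, 2758 in Mlxipl and 477 in Stxbp6, each the highest. The 4 arrays lie in both array sets, 2 in each. None of these arrays enters the change between 5.5 and 3 mM.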

How the results depend on the processing

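For 5.5 against 3 mM in young islets the 149 calls became 132 with an offset of 1 and 174 with 64, 101 without the filter, 153 with a stricter filter, 141 with quantile normalization, 108 with the mean of probe sets, 122 without the intensity trend and 158 in a fit of the 4 arrays alone. The count moved by over 1.5 times to 256 in a fit of only young islets cultured at 3 to 16 mM (131 higher, 125 lower), 762 with the array set factor, 1466 with the replicate block and array set factor and 1552 with the replicate block in the 4 arrays alone. All 149 genes kept their sign in these, except 146 with the mean of probe sets. A fit that keeps the probe set of a gene and does not rescale the arrays could not change its sign, since its arrays did not overlap. Leaving out 1 array gave 0 to 97 genes, and 112 to 661 with the array set factor (229 without 3 mM replicate 1, 175 without 3 mM replicate 2, 661 without 5.5 mM replicate 1); an arm left with 1 array is assumed to vary like the other groups. In old islets 83 became 129 with quantile normalization, 76 with the mean of probe sets, 590 with the array set factor, 1298 with the replicate block (which the correlations of 0.0556 to 0.116 do not establish there) and 1 to 30 without 1 array. At 4 h 621 became 602 with quantile normalization, 543 with the mean of probe sets, 1428 with the array set factor, 2085 with the replicate block and 153 to 235 without 1 array. Of 83 named genes past the threshold, 0 stayed past it without each of the 4 arrays in turn, 32 did with the array set factor and 29 in all other settings, the mean of probe sets ending most calls (32), and none of the 158 named genes reversed. A reversal here is a change of sign in a gene that passed in the main fit or in the other setting. Some named genes that passed in neither changed sign, such as Hspa4, from -0.43 to 0.24 as the mean of its probe sets. Why the counts moved with left-out arrays beyond having fewer arrays was not tested. Dim genes limit what 4 arrays can show.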
